A study of Mus musculus with 12 samples.

Results

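T-cell receptor beta (Trb) and gamma (Trg) gene segments are the pieces of DNA from which immature T cells assemble the genes for 2 of the receptor chains. All rows of the deposited expression table whose gene name, case ignored, starts with Trbv, Trbd, Trbj, Trbc, Trgv, Trgj, Trgc or Tcrg were taken, which gave 56 of 38339 genes. They comprise 23 Trbv, 2 Trbd, 14 Trbj and 2 Trbc genes on mouse chromosome 6, and 7 gamma V, 4 gamma J and 4 gamma C genes on chromosome 13. RNA was sequenced from 6 primary mouse T-ALLs (acute lymphoblastic leukemias of the T lineage, which arise from immature T cells), each carried in transplanted mice of the background C57BL/6 x 129Sv/Jae F1. Bone marrow came from moribund recipients 4 hours after dexamethasone (DEX, a synthetic glucocorticoid) or after vehicle (VEH), and red cells were lysed. Each leukemia gave 1 DEX and 1 VEH library, each from a single recipient, so there were 6 DEX and 6 VEH libraries in 6 pairs. By the codes in the sample titles, leukemia 1 is 73A-46B, leukemia 2 is 73M-19A, leukemia 3 is 78A-143B, leukemia 4 is 2M-127B, leukemia 5 is 20M-116B and leukemia 6 is JW-81-59B. The study's title concerns glucocorticoid receptor loss and dexamethasone resistance, but no library is labelled as resistant. The labels name no sort of the marrow, so cells of the host remained in the samples, and fewer cells of a type and less RNA per cell cannot be told apart.

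In a developing T cell, the recombinase encoded by Rag1 and Rag2 joins a D to a J segment and then a V segment to the joined D and J of the beta locus, and it joins V to J directly in the gamma locus. Most joins delete the DNA that lay between the joined segments, and every descendant of the cell inherits the join, so that a clone carries its own few V segments. The joined V, D and J are transcribed and spliced to a constant (C) gene. The beta locus has a pair of D-J-C clusters, ending in Trbc1 and Trbc2, and a join to the J segments of the downstream cluster removes Trbc1 from that chromosome. Trbv31 lies on the far side of Trbc2 in the opposite orientation. The mouse gamma locus consists of cassettes, each with its own V, J and C genes. Segments that have not been joined can be transcribed as well, before the locus recombines.

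Sequence shows what tells these segments apart. The last 60 bases of the V segments that led a leukemia are shown because V identity is read from them and from the bases before them. The capitals mark the codon of the conserved cysteine at which the third complementarity-determining region begins. Sequences are from GENCODE M21 on GRCm38 (the assembly of mm10), on the strand of the gene. Trbv19 ends at chr6:41178989-41179048 on the plus strand, Trbv13-1 at chr6:41116409-41116468, Trbv26 at chr6:41227934-41227993 and Trbv5 at chr6:41062744-41062803, all on the plus strand. Of the gamma segments, Tcrg-V4 ends at chr13:19185447-19185506 and Tcrg-V1 at chr13:19340395-19340454 on the plus strand, and Trgv2 at chr13:19336573-19336632 on the minus strand.
Trbv19: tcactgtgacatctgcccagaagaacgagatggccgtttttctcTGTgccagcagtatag
Trbv13-1: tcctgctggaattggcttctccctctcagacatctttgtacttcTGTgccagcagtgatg
Trbv26: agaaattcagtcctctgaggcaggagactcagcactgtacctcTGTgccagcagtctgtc
Trbv5: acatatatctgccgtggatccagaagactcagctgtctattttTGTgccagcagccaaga
Tcrg-V4: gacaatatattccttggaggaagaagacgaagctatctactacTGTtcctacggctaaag
Tcrg-V1: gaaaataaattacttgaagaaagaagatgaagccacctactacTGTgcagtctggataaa
Trgv2: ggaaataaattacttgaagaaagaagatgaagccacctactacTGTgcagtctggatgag

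The beta ends shown all continue from the cysteine codon with gccagcag, whereas the bases before it differ. The best local alignment of Trbv19 and Trbv26 spanned 15 bases, and Trbv13-1 and Trbv26 were 62.9% identical over 124 aligned bases. Trgv2 and Tcrg-V1 were 95.7% identical over 371 aligned bases. Trbv13-1, Trbv13-2 and Trbv13-3 were 86.1% to 90.6% identical to each other, and Trbv12-1 and Trbv12-2 88.3%. The longest identical stretch was 34 bases for Trbv13-1 with Trbv13-2 or Trbv13-3, and 50 bases for Trbv13-2 with Trbv13-3. It was 44 bases for Trbv12-1 with Trbv12-2 and 74 bases for Trgv2 with Tcrg-V1. Each is shorter than a read, so a full read lying within such a V segment spans a difference between the copies. Whether reads were still counted for the wrong copy was not tested, so low values of a copy beside an abundant one are taken as uncertain.

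The beta constant genes are close copies as well, 95.6% identical over 521 aligned bases, with 23 mismatches. Only 1 mismatch lies in the first exon of 375 bases, and 21 lie in transcript bases 376 to 515, which are shown because reads there tell the genes apart. The capitals mark the mismatched bases. Trbc1 lies at chr6:41538218-41539881 and Trbc2 at chr6:41546730-41548352, both on the plus strand.
Trbc1: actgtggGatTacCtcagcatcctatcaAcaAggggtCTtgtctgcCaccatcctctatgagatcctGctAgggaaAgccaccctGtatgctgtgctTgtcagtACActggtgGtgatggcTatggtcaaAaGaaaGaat
Trbc2: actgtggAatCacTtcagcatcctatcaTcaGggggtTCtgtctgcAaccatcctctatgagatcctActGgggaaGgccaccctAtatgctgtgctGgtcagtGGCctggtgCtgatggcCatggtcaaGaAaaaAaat

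Expression was given as FPKM (fragments by gene length in kilobases and library depth), so levels of different genes are compared per length. The file gave no counts. The most common value of sparse genes, read as 1 fragment, put the libraries at about 11500000 to 91700000 fragments, the highest estimate being that of the VEH library of leukemia 2, where this value was least sharp. In a gene model of 370 bases, 1 fragment was then worth between 0.0494 and 0.395 FPKM. The T lineage was checked by 11 marker genes, all measured, whose summed level was 1325 to 2132 FPKM in DEX libraries and 1384 to 2448 FPKM in VEH libraries. The marrow also held host cells: 11 granulocyte and monocyte markers summed to 1482 to 5307 FPKM in DEX libraries and 2291 to 9093 FPKM in VEH libraries.

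Not every segment could be read. The 20 D and J members (2 Trbd, 14 Trbj and 4 gamma J genes) were listed at 0 FPKM in all 12 libraries. Their gene models are 12 to 61 bases long, shorter than the 100-base reads, and a value of 0 here says nothing of their use. Trbd1 (chr6:41533201-41533212) and Trbd2 (chr6:41542163-41542176), both on the plus strand, are shown to give the scale of such a segment.
Trbd1: gggacagggggc
Trbd2: gggactgggggggc

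Of the remaining 36 members, 20 reached 1 FPKM in at least 6 libraries and entered the test across 12358 genes. These were 9 Trbv, 2 Trbc, 5 gamma V and 4 gamma C genes. The other 16 were V segments below 1 FPKM in most libraries. Some of them, such as Trbv13-1, Trbv2 and Trbv26, were abundant in few leukemias. Trbv10, Trbv29, Trbv30 and Tcrg-V3 stayed below 1 FPKM in every library. Those named below are described by their levels.

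Each leukemia was dominated by 1 or 2 Trbv segments, and its DEX and VEH recipients had the same highest segment in 6 of 6 pairs. Trbv19 led in leukemias 1, 4 and 5. Its level was 753 FPKM in the DEX and 832 FPKM in the VEH library of leukemia 1, 335 and 306 FPKM in DEX and VEH of leukemia 4, and 1241 and 1304 FPKM in DEX and VEH of leukemia 5. In the 6 libraries of leukemias 2, 3 and 6 it was at most 1.86 FPKM. As a share of all Trbv FPKM, Trbv19 held 84.55% in DEX and 76.53% in VEH of leukemia 1, 78.48% and 64.43% in DEX and VEH of leukemia 4, and 94.17% and 91.8% in DEX and VEH of leukemia 5. The highest share of any segment in any library was that of leukemia 5 in DEX.

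Leukemias 2, 3 and 6 each had a pair of abundant segments, and in leukemia 4 Trbv13-2 came second to Trbv19, at 35.9 FPKM in DEX and 72.9 FPKM in VEH. Leukemia 2 carried Trbv13-1 at 1103 FPKM in DEX and 839.6 FPKM in VEH, together with Trbv2 at 315 FPKM in DEX and 276 FPKM in VEH. Leukemia 3 carried Trbv26 at 976 FPKM in DEX and 924 FPKM in VEH, together with Trbv13-1 at 577 FPKM in DEX and 699 FPKM in VEH. Leukemia 6 carried Trbv5 at 1272 FPKM in DEX and 1369.5 FPKM in VEH, together with Trbv12-1 at 242 FPKM in DEX and 251 FPKM in VEH. Outside its own leukemia, Trbv2 was at most 1.85 FPKM and Trbv26 at most 0.27 FPKM. Trbv5 reached at most 10.2 FPKM and Trbv12-1 at most 5.71 FPKM outside leukemia 6. The shares of the leading and the second segment were 70.49% and 20.12% in DEX and 70.08% and 23.08% in VEH of leukemia 2. They were 60.95% and 36.01% in DEX and 54.79% and 41.45% in VEH of leukemia 3, and 80.88% and 15.39% in DEX and 80.18% and 14.72% in VEH of leukemia 6. Trbv13-1 was thus shared by 2 leukemias and Trbv19 by 3, while Trbv26, Trbv2, Trbv5 and Trbv12-1 were each abundant in a single leukemia.

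**Figure D1:**
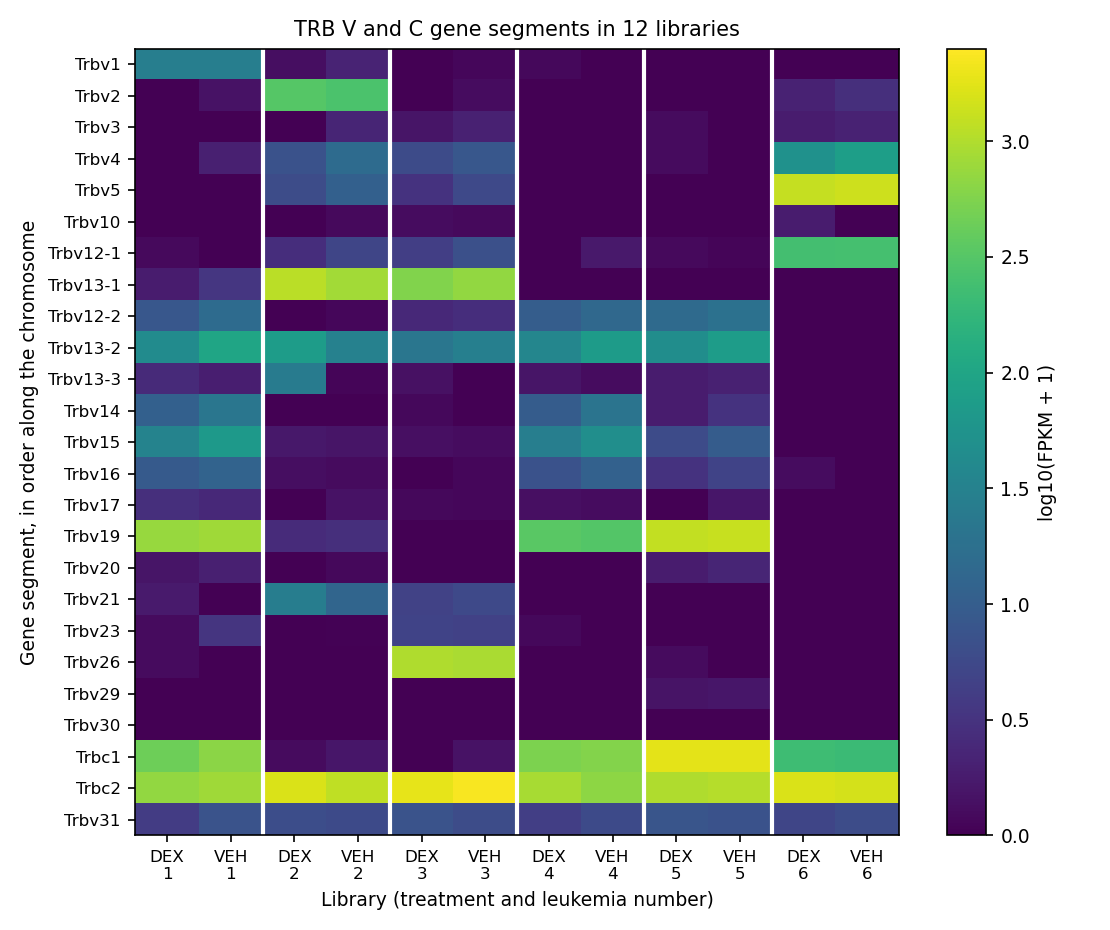
Level of 23 Trbv and 2 Trbc genes in 12 libraries as log10(FPKM + 1), with genes in chromosomal order down the page and the DEX library left of the VEH library in each of the 6 leukemias. The brightest V segment was the same in both libraries of a pair, and Trbc1 was dark in leukemias 2 and 3.

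The effective number of Trbv segments, the inverse of the summed squared shares, was 1.571 ± 0.316 in DEX libraries and 1.753 ± 0.387 in VEH libraries (SD, n = 6 each). The 2 highest segments of a library together held 92.95 ± 4.55% of Trbv FPKM in DEX and 91.1 ± 6.90% in VEH (SD, n = 6 each). Leukemia 4 in VEH was the least concentrated, with an effective number of 2.215, and there Trbv13-2 held 15.34%, against 8.40% in DEX. Leukemia 5 was the most concentrated, at 1.126 in DEX and 1.182 in VEH.

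Position along the chromosome was taken from the abundant segment nearest the D-J-C clusters. Minor Trbv signal lay almost wholly on its 5′ side in 5 of the 6 leukemias, and that side takes in segments between 2 abundant ones. In leukemia 1 the segments 5′ of Trbv19 summed to 132.9 FPKM in DEX and 245.6 FPKM in VEH, whereas the 6 segments between it and the D-J-C clusters summed to 1.81 FPKM in DEX and 3.3 FPKM in VEH. In leukemia 5 the 5′ side summed to 68.5 FPKM in DEX and 108.3 FPKM in VEH, and the 3′ side to 1.64 FPKM in DEX and 1.87 FPKM in VEH. The 3′ side was at most 0.28 FPKM in each library of leukemias 3, 4 and 6, but in leukemia 3 only 2 segments lay there. In leukemia 3, Trbv13-2 lay between the abundant Trbv13-1 and Trbv26, at 20.61 FPKM in DEX and 28.23 FPKM in VEH. In leukemia 4, Trbv15 lay between Trbv13-2 and Trbv19, at 27.65 FPKM in DEX and 47.31 FPKM in VEH. Leukemia 2 differed in that its 3′ side held 128.1 FPKM in DEX and 45.8 FPKM in VEH. The segments there were Trbv13-2 at 73.9 FPKM in DEX and 30.1 FPKM in VEH, Trbv21 at 26.9 and 11.9 FPKM in DEX and VEH, and Trbv13-3 at 24.6 and 0.12 FPKM in DEX and VEH. Trbv13-2 and Trbv13-3 are copies of the abundant Trbv13-1 of that leukemia, so their values are uncertain. The same holds for Trbv13-2 in leukemia 3, where Trbv13-1 was abundant as well. Trbv31, beyond Trbc2, was low and similar everywhere, at 2.99 to 6.79 FPKM.

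Use of the constant genes separated the leukemias more sharply than their total. Trbc1 was 451 FPKM in DEX and 634 FPKM in VEH of leukemia 1, 537 and 587 FPKM in DEX and VEH of leukemia 4, 1795 and 1813 FPKM in DEX and VEH of leukemia 5, and 223 and 204 FPKM in DEX and VEH of leukemia 6. In leukemias 2 and 3 it was 0.26 and 0 FPKM in DEX, against 0.63 and 0.46 FPKM in VEH. Leukemias 2 and 3 thus had next to no Trbc1 in either recipient, and no library of the other leukemias was below 204 FPKM. Trbc2 was present in all libraries, at 668 to 2323 FPKM. By leukemia, Trbc2 was 701, 1603, 1856, 894, 993 and 1616 FPKM in DEX, and 822, 1189, 2323, 668, 1048 and 1494 FPKM in VEH. As a share of both constant genes, Trbc1 was 39.16% in DEX and 43.55% in VEH of leukemia 1. It was 37.53% and 46.79% in DEX and VEH of leukemia 4, 64.39% and 63.38% in DEX and VEH of leukemia 5, and 12.13% and 12.01% in DEX and VEH of leukemia 6. It was highest in leukemia 5. Since the first exon has a single mismatch, the split between these copies is uncertain, although in leukemias 2 and 3 at most 0.63 FPKM was assigned to Trbc1 beside 1189 to 2323 FPKM of Trbc2.

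**Figure D2:**
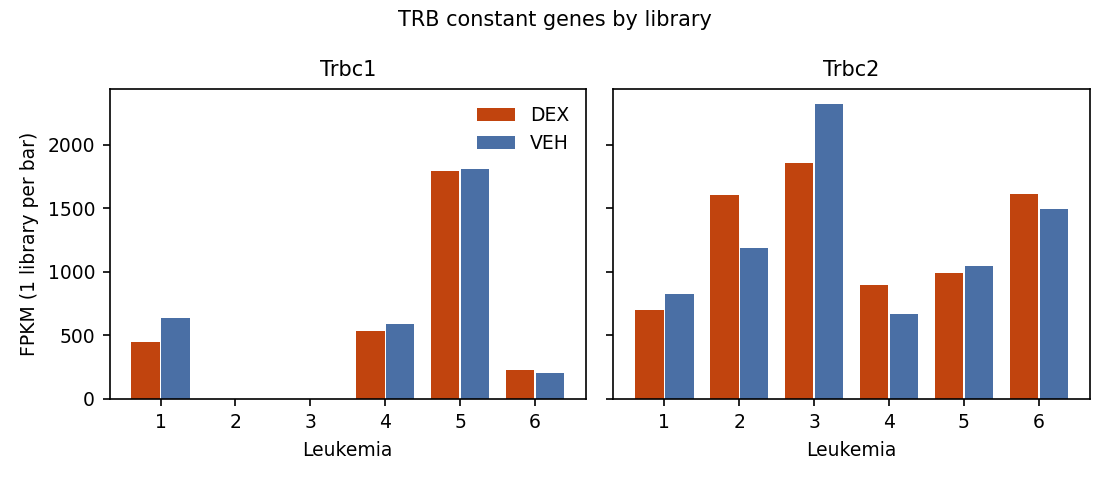
FPKM of Trbc1 and Trbc2 in each library, with DEX bars left of VEH bars in leukemias 1 to 6 and 1 library per bar. Trbc1 was at most 0.63 FPKM in leukemias 2 and 3, whereas Trbc2 was at least 668 FPKM in every library.

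Gamma segments were transcribed in all 6 leukemias, and the highest gamma V segment was the same in 6 of 6 pairs. Tcrg-V1 led in leukemias 1 and 3, at 305 FPKM in DEX and 321 FPKM in VEH of leukemia 1 and at 136 FPKM in DEX and 52.4 FPKM in VEH of leukemia 3. Tcrg-V4 led in leukemia 4, at 642 FPKM in DEX and 476 FPKM in VEH, and in leukemia 5, at 141 FPKM in DEX and 162 FPKM in VEH. Trgv2 led in leukemia 2, at 217 FPKM in DEX and 358 FPKM in VEH, and in leukemia 6, at 444 FPKM in DEX and 427 FPKM in VEH. The margin over the second segment was narrow in leukemias 2 and 6. There Tcrg-V1 reached 176 FPKM in DEX and 333 FPKM in VEH of leukemia 2, and 419 FPKM in DEX and 386 FPKM in VEH of leukemia 6. Leukemia 6 also held Tcrg-V7 at 257 FPKM in DEX and 331 FPKM in VEH, and Tcrg-V4 at 238 FPKM in DEX and 303 FPKM in VEH. Tcrg-V7 was at most 9.63 FPKM in the other 10 libraries.

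The leukemias also differed in how many gamma V segments they transcribed. The effective number of gamma V segments was 2.304 ± 0.787 in DEX and 2.302 ± 0.937 in VEH (SD, n = 6 each). It was highest in leukemia 6, at 3.724 in DEX and 3.93 in VEH. The lowest values were 1.61 in DEX of leukemia 4 and 1.475 in VEH of leukemia 1. The leading gamma V segment held 59.4 ± 17.0% in DEX and 58.7 ± 20.4% in VEH (SD, n = 6 each), a difference of 0.73 ± 6.30 percentage points. Tcrg-V5 was the second segment of leukemia 1 in DEX, at 48.0 FPKM, against 16.4 FPKM in VEH. Tcrg-V6 was seen mainly in leukemia 1, at 17.1 FPKM in DEX and 9.33 FPKM in VEH. Tcrg-V3 was at most 0.33 FPKM in any library.

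**Figure D3:**
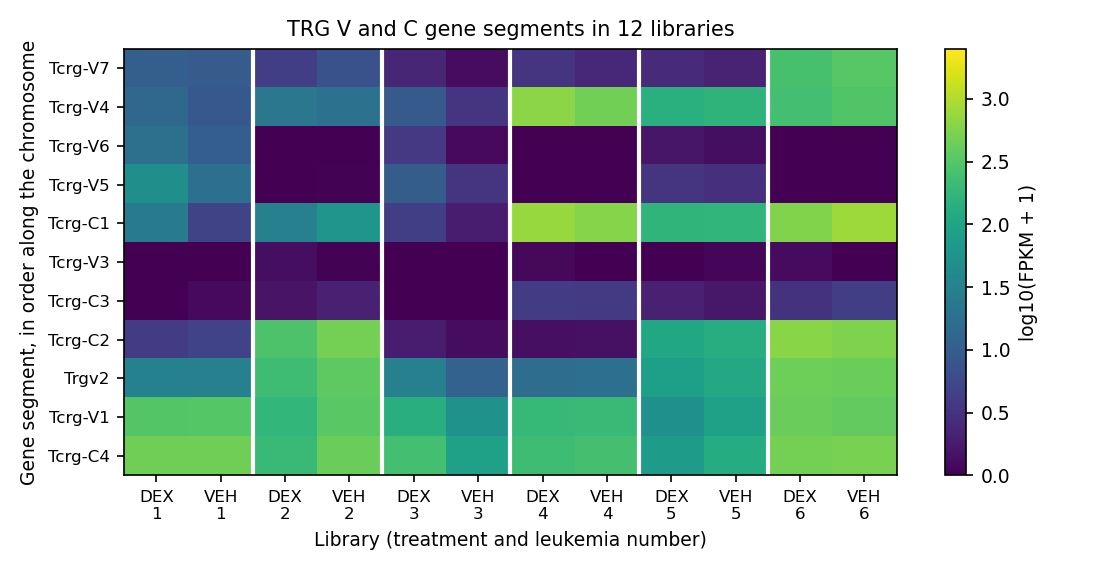
Level of 7 gamma V and 4 gamma C genes in 12 libraries as log10(FPKM + 1), with genes in chromosomal order down the page and the DEX library left of the VEH library in each leukemia. Tcrg-V1 and Tcrg-C4 were bright in all leukemias, and Tcrg-C2 was bright in leukemias 2, 5 and 6 alone.

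The gamma constant genes followed the V segments of their own cassettes in part: Tcrg-C4 in every library, but Tcrg-C1 and Tcrg-C2 only where they were high. Tcrg-C4, which lies with Tcrg-V1, was present in all libraries, at 72.8 to 495 FPKM in DEX and 86.8 to 525 FPKM in VEH. The FPKM of Tcrg-V1 over that of Tcrg-C4 lay between 0.569 and 0.92 in every library. Tcrg-C1 lies with Tcrg-V7, Tcrg-V4, Tcrg-V6 and Tcrg-V5, and was 759 FPKM in DEX and 602 FPKM in VEH of leukemia 4. It was 168 and 169.8 FPKM in DEX and VEH of leukemia 5, 575 and 799 FPKM in DEX and VEH of leukemia 6, and 29.4 and 60.2 FPKM in DEX and VEH of leukemia 2. In leukemias 1 and 3, Tcrg-C1 was low beside its V segments: 25.3 and 3.31 FPKM in DEX, against 3.92 and 0.89 FPKM in VEH, with V segments at 3.46 to 10.7 times its level. Tcrg-C2, with Trgv2, was 283, 107 and 625 FPKM in DEX of leukemias 2, 5 and 6, against 493, 131 and 559 FPKM in VEH. It was 0.38 to 2.9 FPKM in DEX and 0.31 to 3.86 FPKM in VEH of leukemias 1, 3 and 4.

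In leukemias 2, 5 and 6, Trgv2 stood at 0.71 to 0.848 times the FPKM of Tcrg-C2. In leukemias 1, 3 and 4, Trgv2 was listed at 15.4 to 30.4 FPKM in DEX and 10.8 to 29.6 FPKM in VEH with hardly any Tcrg-C2, at 7.67 to 40.6 times its level. Trgv2 is a near copy of Tcrg-V1, which was 52.4 to 321 FPKM in those libraries, so the Trgv2 value there is uncertain. Tcrg-C3 was at most 3.27 FPKM, and Tcrg-C1, Tcrg-C2 and Tcrg-C3 were 96.1% to 97.3% identical to each other, so low values of these genes beside a high copy are uncertain as well. Tcrg-C4 was 71.3% identical to Tcrg-C1. The highest gamma C gene was the same in 5 of 6 pairs. In leukemia 6 it was Tcrg-C2 in DEX and Tcrg-C1 in VEH, with shares of 36.8% and 33.9% for Tcrg-C2 and Tcrg-C1 in DEX and of 29.6% and 42.4% in VEH.

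Differences between leukemias were tested with limma's F test on log2(FPKM + 1), with 2 libraries for each leukemia and Benjamini-Hochberg adjustment over all genes. Of 12358 genes tested, 51.1% differed between leukemias at an adjusted p under 0.05, and 19 of the 20 tested segments did. By the F statistic, Trbv19 ranked 1, Trbc1 ranked 2, Tcrg-C2 ranked 4, Trbv5 ranked 7 and Trbv12-1 ranked 45 among the 12358 genes (adjusted p = 8.1e-11 for Trbv19 and 4.2e-09 for Trbc1). Trbc2, Tcrg-V1 and Tcrg-C4, which all leukemias expressed, ranked 1497, 2482 and 3902. Trbv31 was the segment that did not pass (adjusted p = 0.371, rank 10914). The 2 recipients of a leukemia differ in treatment. The p-values therefore rest on the spread left between them once the mean treatment difference is removed, and spread between recipients treated alike was not measured. Segments at less than 1 FPKM in most libraries were not tested.

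None of the 20 tested segments changed with DEX at an adjusted p under 0.05 in limma's paired fit, against 13.6% of all 12358 genes (4.27% higher and 9.28% lower). The unadjusted p was under 0.05 for 3 of the 20 segments (Trbv4, Trbv12-2 and Trbc1), against 30.2% of all genes. Trbv12-2, a V segment highest in leukemias 1, 4 and 5, had a log2 difference of -0.34 ± 0.12 (SE, adjusted p = 0.092 from limma) and was lower in 5 of 6 pairs. These pairs include leukemia 2, where it was 0 FPKM in DEX and 0.15 FPKM in VEH, too low to be read. In leukemia 6 it was 0 FPKM in both libraries. Trbv4, which lies next to Trbv5 and was highest in leukemia 6, at 51.6 FPKM in DEX and 79.0 FPKM in VEH, had -0.47 ± 0.19 (adjusted p = 0.127 from limma). The tested segments had a median log2 difference of -0.14, with the 11 beta segments at -0.30 and the 9 gamma segments at 0.03, beside -0.05 for all tested genes. The difference was below 0 for 10 of 11 beta segments and 4 of 9 gamma segments. The segments share the same libraries and are not independent, and the median of all genes was below 0 too. These counts are therefore a description with no test.

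The constant genes, which are read whatever V segment is joined, did not pass the test. Trbc1 averaged 501 ± 672 FPKM in DEX and 540 ± 682 FPKM in VEH (SD, n = 6 each), and was lower in DEX in 5 of 6 leukemias, 2 of which had next to none. The limma estimate for Trbc1 was -0.24 ± 0.10 on the log2 scale (SE, adjusted p = 0.14). When FPKM was rescaled to a fixed sum per library (TPM), Trbc1 passed, at -0.28 ± 0.08 with an adjusted p of 0.0359, over a range of 0.0359 to 0.99 over all alternatives. Trbc2 averaged 1277 ± 473 FPKM in DEX and 1257 ± 596 FPKM in VEH (SD, n = 6 each) and was higher in 3 of 6 leukemias, with a log2 difference of 0.06 ± 0.11 (SE, adjusted p = 0.777 in limma). With the rescaled values Trbc2 stood at -0.08. The share of Trbc1 differed by -2.10 ± 3.99 percentage points between DEX and VEH (SD, n = 6), less than its spread over leukemias. Without leukemia 4 it was -0.66 points, and it was -4.56 in leukemias 1, 3 and 4 alone and 0.37 in leukemias 2, 5 and 6 alone.

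**Figure D4:**
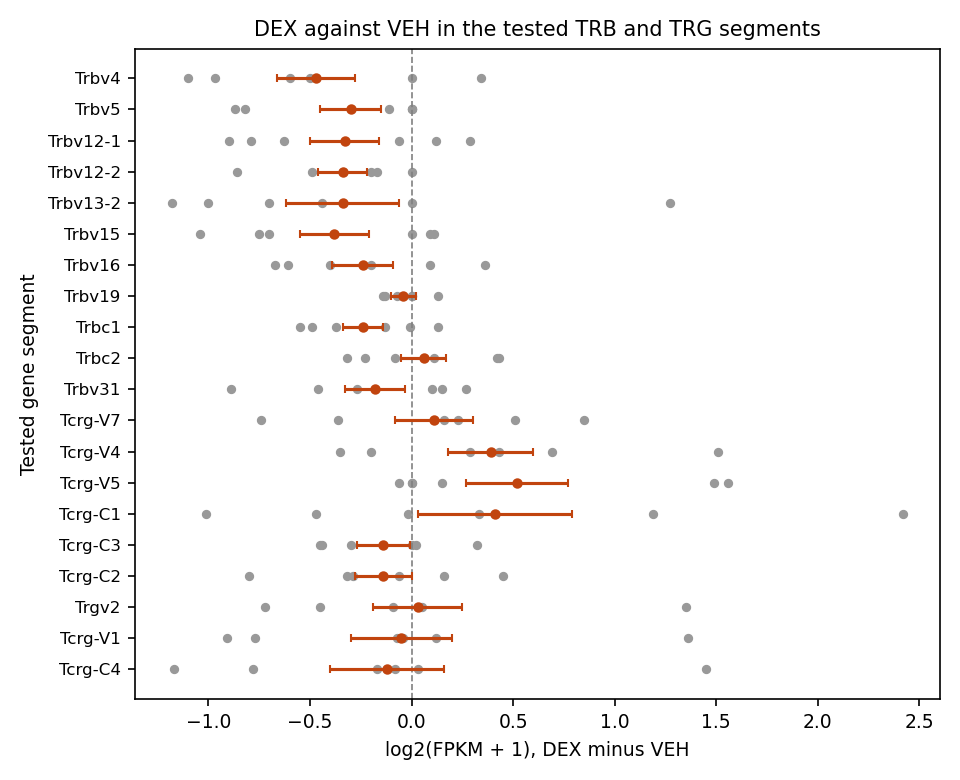
Difference in log2(FPKM + 1), DEX minus VEH, for the 20 tested segments. Grey points are the 6 leukemias, and coloured points with bars are the limma estimate and its SE; the gamma segments spread more widely than Trbv19 and Trbc2, and no segment passed an adjusted p of 0.05.

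Summed by class, the segments hardly differed between treatments on average. All Trbv segments together had 1229 ± 476 FPKM in DEX and 1262 ± 460 FPKM in VEH (SD, n = 6 each), a log2 difference of -0.06 ± 0.23 (SD, lower in 5 of 6). The Trbc genes had a log2 difference of 0.01 ± 0.30, gamma V segments 0.10 ± 0.75 and gamma C genes 0.06 ± 0.80 (SD, n = 6). These sums describe the members and were not tested.

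The gamma sums moved in opposite directions in different leukemias. Gamma C genes summed to 242.5 FPKM in DEX and 88.0 FPKM in VEH of leukemia 3 (log2 difference 1.45), and to 504 FPKM in DEX and 986 FPKM in VEH of leukemia 2 (-0.97). Tcrg-C4 alone was 238 FPKM in DEX and 86.8 FPKM in VEH of leukemia 3, and 192 FPKM in DEX and 432 FPKM in VEH of leukemia 2. The other 4 leukemias lay between -0.29 and 0.20. Markers of host cells lay in the same direction in these pairs but not in all: the granulocyte and monocyte markers summed to 3298 FPKM in DEX and 2291 FPKM in VEH of leukemia 3, and to 1620 FPKM in DEX and 4586 FPKM in VEH of leukemia 2. In leukemia 2 the 9 B-lineage markers summed to 8.79 FPKM in DEX and 53.2 FPKM in VEH, and 7 erythroid markers to 148.5 FPKM in DEX and 1158 FPKM in VEH. The T-lineage markers were 2132 FPKM in DEX and 2448 FPKM in VEH of leukemia 3, and 1657 FPKM in DEX and 1720.0 FPKM in VEH of leukemia 2. In leukemia 6 the granulocyte and monocyte markers stood at a log2 difference of -1.36 with gamma C at -0.15, and in leukemia 1 at -0.78, with erythroid markers at -1.86, while gamma C stood at 0.09. No marker of these lists was at 0 in all libraries. The part of these cells in the gamma values was not tested.

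The leading Trbv segment of each leukemia held a larger share of Trbv FPKM in DEX than in VEH in 6 of 6 pairs. Its share averaged 78.2 ± 11.5% in DEX and 73.0 ± 12.9% in VEH (SD, n = 6 each), a difference of 5.29 ± 5.26 percentage points with a range of 0.41 to 14.05. The difference was widest in leukemia 4 and narrowest in leukemia 2. The leading and second segments together differed less, by 1.83 ± 3.28 points (SD, n = 6). In leukemia 2 alone their joint share was lower in DEX, at 90.61% against 93.16% in VEH. In leukemia 3 it was 96.96% in DEX and 96.23% in VEH, while the second segment held 36.01% and 41.45%. In leukemias 1, 3 and 4, whose sample descriptions end in an S number for both libraries, the mean difference was 9.41 points, and in leukemias 2, 5 and 6, where the DEX description has none, it was 1.16 points. The meaning of that suffix is not given in the sources used here.

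The level of the leading segment itself was higher in DEX in leukemias 2, 3 and 4 and lower in leukemias 1, 5 and 6, as given above. To describe the remaining segments, abundant segments were taken as the leading one and a second one with at least 10% of Trbv FPKM in either library, which made Trbv13-2 abundant in leukemia 4. The sum of the abundant segments had a log2 ratio of DEX over VEH of -0.01 ± 0.18, whereas that of the other Trbv segments had -0.42 ± 0.65 (SD, n = 6 each). The other segments were lower in DEX in 5 of 6 leukemias: 134.7 FPKM in DEX and 248.9 FPKM in VEH of leukemia 1, 42.3 and 58.3 FPKM in DEX and VEH of leukemia 3, and 52.7 and 91.3 FPKM in DEX and VEH of leukemia 4. They were 70.1 FPKM in DEX and 110.1 FPKM in VEH of leukemia 5, and 54.6 FPKM in DEX and 82.0 FPKM in VEH of leukemia 6. Leukemia 2 went the other way, with 141.5 FPKM in DEX and 77.2 FPKM in VEH. Of these sums, Trbv13-2 held 73.9 FPKM in DEX and 30.1 FPKM in VEH, and Trbv13-3 held 24.6 and 0.12 FPKM. Both are copies of its abundant Trbv13-1, so the direction of this sum in leukemia 2 is uncertain. Beside an abundant Trbv13-1 in leukemia 3, however, Trbv13-3 was only 0.4 FPKM in DEX and 0 FPKM in VEH. Whether misassigned reads raised the copies in DEX of leukemia 2 was not tested. Trbv21 was higher in DEX of leukemia 2 as well, at 26.9 FPKM against 11.9 FPKM in VEH. There 4 of 7 segments with a mean of at least 1 FPKM were lower. In leukemia 3, Trbv13-2 is such a copy too, at 20.6 FPKM in DEX and 28.2 FPKM in VEH. The log2 ratio of the other segments minus that of the abundant ones was -0.41 ± 0.48 over all 6 leukemias (SD), and -0.60 without leukemia 2. This contrast was chosen after the values were seen, so it is a description with no test.

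**Figure D5:**
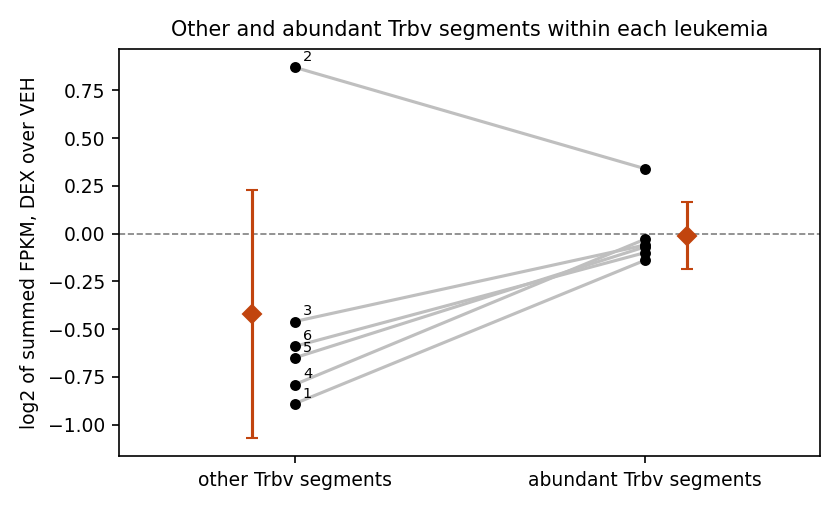
log2 ratio of summed FPKM, DEX over VEH, for the other and the abundant Trbv segments of each leukemia. Points are single leukemias with their number, lines join the points of a leukemia, and diamonds with bars are the mean and SD. The other segments lie between -0.89 and -0.46 in 5 leukemias and at 0.87 in leukemia 2, where copies of the abundant Trbv13-1 make the value uncertain.

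Segment by segment, 29 of the 36 cases of a minor segment with a mean of at least 1 FPKM in a leukemia were lower in DEX, 25 of 29 outside leukemia 2 and 4 of 7 within it. By leukemia these were 7 of 10 in leukemia 1, 6 of 7 in leukemia 3, 4 of 4 in leukemia 4, 6 of 6 in leukemia 5 and 2 of 2 in leukemia 6. The share of all genes lower in DEX within each pair was not computed, so these counts show nothing particular to the segments. Of all genes tested, 9.28% were called lower and 4.27% higher, at a median of -0.05. Some cases rest on few fragments, such as Trbv23 of leukemia 1 at 0.26 FPKM in DEX and 2.32 FPKM in VEH. In the leukemias led by Trbv19, 5 of the segments that lie 5′ of it (Trbv12-2, Trbv13-2, Trbv14, Trbv15 and Trbv16) are described. They were picked after their values were seen and stood at 0.378 to 0.779 times their VEH level in leukemias 1, 4 and 5, with Trbv13-2 of leukemia 4 among the abundant segments by the rule above. In leukemia 1, 3 other segments 5′ of Trbv19 were as high or higher in DEX: Trbv1 at 27.6 FPKM in DEX and 27.4 FPKM in VEH, Trbv13-3 at 1.57 and 0.95 FPKM in DEX and VEH, and Trbv17 at 1.84 and 1.43 FPKM in DEX and VEH. Trbv13-2 was 43.1, 35.9 and 45.1 FPKM in DEX of leukemias 1, 4 and 5, against 99.2, 72.9 and 74.0 FPKM in VEH. Trbv15 was 31.9, 27.6 and 4.99 FPKM in DEX of these leukemias, against 66.6, 47.3 and 8.74 FPKM in VEH. Trbv14 was 10.01, 8.63 and 0.82 FPKM in DEX, against 20.5, 19.4 and 2.17 FPKM in VEH. In each pair of Trbv13-2, Trbv15 and Trbv14 values the DEX library was below the VEH library. The segments of a leukemia share its 2 libraries and are not independent of each other. In limma's fit over all 6 leukemias Trbv13-2 did not pass, at -0.34 ± 0.28 (SE, adjusted p = 0.438), with leukemia 2 at 1.27. Without leukemia 2 it passed, at -0.66 ± 0.16 with an adjusted p of 0.042, and over all alternatives its adjusted p ranged from 0.0246 to 0.975.

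Genes of the same pathways were compared in the same fit. Of 13 V(D)J recombination genes tested, 1 was higher and 2 were lower with DEX, beside 4.27% higher and 9.28% lower of all genes tested, and the list had a median log2 difference of -0.03. Dntt, which adds untemplated bases at the joints, fell to 156 ± 96.7 FPKM in DEX, against 234 ± 87.9 FPKM in VEH (SD, n = 6 each; log2 difference -0.70 ± 0.14 SE, adjusted p = 0.0145 in limma). Lig4, the ligase that seals the joints, fell by 0.46 on the log2 scale, and Xrcc6, which encodes the DNA end-binding protein Ku70, rose by 0.39. Rag1 averaged 95.1 ± 61.1 FPKM in DEX and 134 ± 79.7 FPKM in VEH and did not pass (-0.53 ± 0.16 SE, adjusted p = 0.0546 in limma), nor did Rag2 (-0.30 ± 0.26 SE, adjusted p = 0.455). Of 14 regulators of these loci, 1 was higher and 2 were lower, beside the same shares of all genes. Gata3, a transcription factor of the T lineage, and Runx1, which binds the beta enhancer, fell by 1.13 and 0.63 on the log2 scale. Ikzf1, the lymphoid zinc-finger factor Ikaros, rose by 0.29, and 11 did not pass. Il7r, the receptor whose signal opens the gamma locus, had a log2 difference of 0.07. The regulators had a median log2 difference of -0.22, beside -0.05 for all genes. With few genes in each list, these counts show nothing particular to the lists.

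The counts of the next lists stand beside 13.6% of all genes called, 4.27% higher and 9.28% lower. Of the 7 pre-TCR and CD3 chain genes, 2 fell: Cd3g, a CD3 chain, to 207 ± 63.4 FPKM in DEX, against 256 ± 58.4 FPKM in VEH, and Trat1, a receptor-associated adaptor, to 67.3 ± 22.7 FPKM in DEX, against 88.3 ± 25.1 FPKM in VEH (SD, n = 6 each). Ptcra, the partner of the beta chain before the alpha chain is made, was 40.9 ± 28.5 FPKM in DEX and 43.3 ± 25.1 FPKM in VEH and did not pass, nor did Cd3e. Trac, the alpha constant gene, was 3.81 FPKM in DEX and 5.63 FPKM in VEH of leukemia 1, against 51.9 to 126 FPKM in DEX and 56.5 to 149 FPKM in VEH of the other leukemias. Of 11 T-lineage markers, 1 rose (Cd8b1, a CD8 chain, by 0.26 on the log2 scale) and 4 fell, among them Cd5, an inhibitory co-receptor, by 0.82. Of 4 tested genes of gamma-delta T cells, Sox13, a transcription factor of that lineage, fell to 6.69 ± 5.41 FPKM in DEX, against 16.9 ± 15.8 FPKM in VEH (log2 difference -1.10 ± 0.10 SE, adjusted p = 0.00077 in limma), and 3 did not pass. The summed T-lineage markers were lower in DEX in 6 of 6 leukemias, by 0.05 to 0.20 on the log2 scale, and the summed granulocyte and monocyte markers were lower in 5 of 6, all except leukemia 3. Their part in the lower values of the minor Trbv segments was not tested.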

How the data were processed

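Total RNA of bone marrow from 12 recipients of 6 leukemias was sequenced as stranded total RNA libraries with paired reads of 100 bases, per the labels' protocols. Groups came from the labelled treatment, and the leukemia code in the titles gave the pairs. The deposited values are FPKM made by the authors. Per the submitters' processing notes, Bowtie2 (version 2), RSEM and edgeR were used with mm10, in roles that are not stated. The annotation version is not given in the sources used here, nor is the treatment of multiply aligned reads. The file held no column of other samples.

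From the deposited FPKM, log2(FPKM + 1) was computed without further scaling for genes that reached 1 FPKM in 6 or more of the 12 libraries. limma 3.58.1 (R 4.3.3, eBayes with trend) fitted treatment with leukemia as a block, two-sided, with Benjamini-Hochberg adjustment over 12358 genes and a threshold of 0.05. The fit had 5 residual degrees of freedom. Errors of log2 differences are SE and those of levels SD, and fold changes of low genes are understated by the pseudocount of 1. The replicate is the leukemia, so p-values for treatment measure the spread between leukemias, each with a single recipient per arm. The pairing, which rests on the shared leukemia, was checked in the values: after group means were removed, the correlation across genes was 0.55 to 0.82 within leukemias and 0.21 or less between them.

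Shares are percentages of the summed FPKM of a class, computed here with Python 3.11.15 and pandas 2.3.3. Depth was estimated from the FPKM of sparse genes with an assumed fragment of 150 bases, so counting intervals were not made. Of the 56 segments, 52 matched GENCODE M21 by identifier and 4 (Trbv4, Trgj1, Trgj2 and Trgj3) by symbol. Sequences are GENCODE M21 transcripts, aligned pairwise. The test was checked on simulated data. The named segments are all constant and Trbd genes, the leading V segment of each leukemia with a second of at least 10%, and any segment past the threshold, and of the lists up to 4 genes past the threshold and 8 fixed by name. Other segments were named after their values were seen. Segments, lists and rules were chosen with earlier results of these data known. Alternatives covered the pseudocount (0.1 and 0.5), the filter, scaling, the block, leaving out a leukemia and gene length. Trdc and Scart2 were not analysed here.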

Additional observations from a re-analysis of the deposited data

Results flagged for a closer look

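Several segments stood far from the rest in a single leukemia, by the gap of the highest of 6 values to its nearest neighbour against their whole range. Normally distributed values meet this criterion in about 1 in 20 groups. That rate does not hold for segments abundant in a single leukemia, whose FPKM are not so distributed. In both arms the segments that stood apart were Trbv2 in leukemia 2 (315 FPKM in DEX and 276 FPKM in VEH), Trbv5 in leukemia 6 (1272 FPKM in DEX and 1369.5 FPKM in VEH) and Trbv12-1 in leukemia 6 (242 FPKM in DEX and 251 FPKM in VEH). Trbv26 in leukemia 3 (976 FPKM in DEX and 924 FPKM in VEH), Trbc1 in leukemia 5 (1795 FPKM in DEX and 1813 FPKM in VEH) and Tcrg-V5 in leukemia 1 (48.0 FPKM in DEX and 16.4 FPKM in VEH) stood apart in both arms as well. Tcrg-V4 stood apart in leukemia 4 in the DEX libraries alone, at 642 FPKM.

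Among the within-leukemia differences, leukemia 2 stood apart from the other 5 in the log2 ratio of DEX over VEH of summed Trbv segments (0.38), of the abundant segments (0.34), of the other segments (0.87) and of the other against the abundant segments (0.53). These 4 values share the same pair of libraries and in part the same segments. Those of the other segments include Trbv13-2 and Trbv13-3, copies of the abundant Trbv13-1 of leukemia 2, and are uncertain. Leukemia 3 stood apart in Trgv2, with a log2 difference of 1.35. Trgv2 is a near copy of Tcrg-V1, which differed by 1.36 in the same pair, so this Trgv2 value is uncertain.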

How the results depend on the processing

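The count of genes changed by DEX was 1675, and it was 551 with no filter, 81 with no replicate block (the unpaired fit), 911 in leukemias 1, 3 and 4 alone, 445 in leukemias 2, 5 and 6 alone, and 658 to 1574 with 1 leukemia left out. Of these 1675 genes 528 were higher and 1147 lower at a median gene of -0.05; rescaling to TPM gave 268 higher and 1844 lower at -0.16, and median-of-ratios scaling 683 and 718 at 0.00. The count of changed segments was 0, and 0 without the block too. It was 1 after rescaling to TPM (Trbc1, at -0.28) and 1 in leukemias 1, 3 and 4 alone (Trbv13-2, at -0.87), and 0 to 1 with 1 leukemia left out (Trbv13-2, without leukemia 2). Genes that differ between leukemias numbered 6321, and 3964 in leukemias 2, 5 and 6 alone. Segments that differ numbered 19 of 20, and 29 of 36 with no filter.

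Of the segments whose log2 difference turned sign in an alternative, only Trbv13-2 passed the test in another, as given above. Trbc2 stood at -0.08 with TPM and at -0.04 in leukemias 1, 3 and 4, and ranged from -0.02 to 0.13 with 1 leukemia left out. Tcrg-V7 stood at -0.05 with TPM and -0.29 in leukemias 2, 5 and 6 (left-out range -0.04 to 0.28), and Trgv2 at -0.12 and -0.37 in these settings (-0.23 to 0.18). In leukemias 2, 5 and 6 alone, Tcrg-V4 stood at -0.09, Tcrg-C1 at -0.50 and Trbv13-2 at 0.19. In leukemias 1, 3 and 4 alone, Tcrg-C2 stood at 0.02, Tcrg-V1 at 0.42 and Tcrg-C4 at 0.44. Tcrg-V1 was 0.01 with median-of-ratios scaling (left-out range -0.33 to 0.12), and the left-out range of Tcrg-C4 was -0.43 to 0.09. The causes were not tested. Summed levels and shares moved by less than 1 SD in every alternative run. Depth is an estimate, D and J segments are not read, and close copies limit the low values.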
